A study of Mus musculus with 6 samples.

Results

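The transcripts described here are those of 46 genes of mitosis and of the passage from G2 into mitosis, listed by symbol from known function with no threshold on measured values, although earlier results of these data were known. They were 46 of the 39179 genes counted in each library, and all 46 were among the 13846 genes that passed a filter on low counts. RNA was sequenced from mouse T cells in 6 libraries, 3 of a desIgf1 group and 3 of a control group, to compare Th17 cells made with this factor and without it. desIgf1 is a shortened insulin-like growth factor 1 that IGF-binding proteins hold only weakly. The cells of both groups were naive CD4+ T cells, labelled as from spleen, of C57BL/6 mice that carry 3 reporters: IL17a/hCD2, with human CD2 at Il17a, plus Ifng/Thy1.1 and also Foxp3/GFP. Every culture ran for 5 days with soluble anti-CD3 at 5 µg/mL, irradiated splenocytes without CD4 cells, IL6 at 20 ng/mL, TGF-β at 2.5 ng/mL, and anti-Ifng and anti-IL4 at 10 µg/mL each. The desIgf1 group also had 30 ng/mL desIgf1. The protocol text lists it for all 6 libraries, and the groups here follow the titles and descriptions. Only cells positive for the Il17a reporter and negative for the Foxp3 and Ifng reporters were kept for RNA, so these values describe that sorted fraction and not the whole culture.

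An activated T cell divides many times, and each division needs a burst of transcripts that are made late in the cycle and lost again after mitosis. Cyclin B with CDK1 drives entry into mitosis, polo-like and aurora kinases build the spindle, the spindle checkpoint holds the anaphase-promoting complex until chromosomes are attached, and kinesins and the contractile ring then part the cells. Genes of this program share promoter elements: the cell cycle genes homology region, CHR, is bound by MuvB complexes that hold back these genes in resting cells and, with MYBL2 and FOXM1, switch them on before mitosis, and CCAAT boxes nearby are bound by NF-Y.

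The upstream sequences of 4 members with a CHR word are shown because they carry the elements this gene group is known for. They are from RefSeq (GRCm38.p6), are the 150 bases before the annotated start, read 5′ to 3′ on the gene's own strand, and lie on the minus strand at chr7:135716380-135716529 (Mki67), chr11:99024190-99024339 (Top2a), chr10:69352913-69353062 (Cdk1) and chr4:118437344-118437493 (Cdc20). Capitals mark TTTGAA or TTCGAA and CCAAT, each on either strand (TTCAAA and ATTGG are the reverse strand).
Mki67: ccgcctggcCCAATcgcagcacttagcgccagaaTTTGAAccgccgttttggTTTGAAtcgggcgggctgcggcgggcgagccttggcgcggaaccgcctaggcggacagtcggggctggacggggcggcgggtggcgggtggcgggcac
Top2a: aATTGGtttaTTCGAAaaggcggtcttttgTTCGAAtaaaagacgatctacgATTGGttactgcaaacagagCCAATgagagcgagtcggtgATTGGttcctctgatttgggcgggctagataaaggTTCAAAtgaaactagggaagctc
Cdk1: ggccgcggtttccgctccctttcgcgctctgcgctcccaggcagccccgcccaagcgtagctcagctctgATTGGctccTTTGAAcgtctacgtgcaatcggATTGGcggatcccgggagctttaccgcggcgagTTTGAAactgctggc
Cdc20: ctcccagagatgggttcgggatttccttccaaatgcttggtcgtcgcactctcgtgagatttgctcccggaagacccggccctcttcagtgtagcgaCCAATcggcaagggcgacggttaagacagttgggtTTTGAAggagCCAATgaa
Mki67 held 2 CHR words and 1 CCAAT in this window, Top2a 3 and 4, Cdk1 2 and 2, and Cdc20 1 and 2. An upstream sequence was matched for 39 of the 46 members, and Aurkb, Ccna2, Cdc25c, Dlgap5, Kif20a, Smc4 and Tpx2 had none. A CHR word stood in 12 of the 39 (30.8%), against 8.92% of 17492 protein-coding genes in the same window. CCAAT stood in 30 of the 39 (76.9%), against 27.5%, and 17 (43.6%) held at least 2 of them, against 7.69%. Both motifs stood in 11 of the 39 (28.2%), against 2.52%. A match is a description of the letters and no evidence of binding in these cells.

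Gene counts summed to 34567899 to 47929948 per library. The defining T cell genes Cd3d, Cd3e, Cd3g, Cd4 and Trac summed to 3930 to 3965 CPM (counts scaled to a common library size) in the controls and 3958 to 4513 CPM with desIgf1, so the labelled cell type was present in every library. The 7 Th17 markers summed to 1536 to 1785 CPM in the controls and 2129 to 2525 CPM with desIgf1. Markers of other cells were low: 7 B cell genes summed to 2.04 to 6.79 CPM in the controls and 1.40 to 4.51 CPM with desIgf1, and 8 monocyte and macrophage genes to 3.21 to 10.3 CPM and 7.26 to 11.8 CPM, with Fcgr1 at 0 throughout. Dendritic cell genes summed to at most 3.31 CPM (Xcr1, Siglech and Clec10a at 0), CD8 genes to at most 11.0 CPM, NK genes to at most 7.96 CPM (Ncr1 and Klra8 at 0) and neutrophil genes to at most 0.716 CPM (Elane at 0). Both libraries numbered 3 stood apart from the other 4 on the first principal component of all tested genes (43.5% of the variance). The second (27.0%) parted the groups, with desIgf1 libraries at 13.1 to 39.85 and controls at -35.0 to -12.3. Control library 2 stood apart on the third (14.4%), at -32.4 against -9.82 to 23.7. No label says that the libraries of a group are separate cultures or mice, so a p-value here reflects only library-to-library spread, which may be technical. The titles give each group the numbers 1, 2 and 3, and same-numbered libraries deviated together, so values within a number are given below beside the group comparison.

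The mitotic genes were lower on average with desIgf1, but no gene of the 46 passed the test. The average difference shrank without either library numbered 2, and most of it was gone without control library 2. At an adjusted p threshold of 0.05, 0 of 46 were called in edgeR's quasi-likelihood test, with a background of 0% of all tested genes, and 0 of 46 with the replicate number as a block, with a background of 0.318%. The smallest adjusted p of a member was 0.394, or 0.188 with the block, both for Psrc1. The median log2 fold change of the 46 was -0.26, with a range of -0.57 to 0.04, against -0.01 over all tested genes. It lay below 0 for 44 of 46 members, against 50.9% of tested genes. Leaving out control library 2 gave a median of -0.04, and 29 of 46 lay below 0. Leaving out desIgf1 library 2, the lowest for most members, gave a median of -0.16, and 43 of 46 lay below 0. Control 2 was the highest library for nearly all members, so a rise without it was largely fixed in advance.

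The whole group summed to 7286, 10380 and 6508 CPM in control libraries 1, 2 and 3, and to 7084, 5691 and 7253 CPM in desIgf1 libraries 1, 2 and 3. Control 2 was the highest library and desIgf1 2 the lowest, and the other 4 lay between them with the groups mixed. The same 46 genes took 1.03% of all gene counts in control 2 and 0.565% in desIgf1 2, and 0.657 to 0.732% in the other 4. By gene, control 2 was the highest library for 45 of 46 members, against a background of 19.3% of tested genes. desIgf1 2 was the lowest library for 34 of 46, against 21.5%. Cks2 was the exception at the top, being highest in control 3. Control 2 had a median of 1.35 times the highest of the other 5 libraries, with a range over members of 0.830 to 1.60. In bulk RNA, a smaller share of dividing cells and less of these transcripts per dividing cell cannot be told apart. The depth of control 2, 42860119 counts, lay inside the range of the others, and its marker sums were 2.21 CPM for B cells, 8.28 CPM for monocytes and macrophages and 1536 CPM for Th17 genes. The part of these in its high mitotic levels was not tested.

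**Figure D1:**
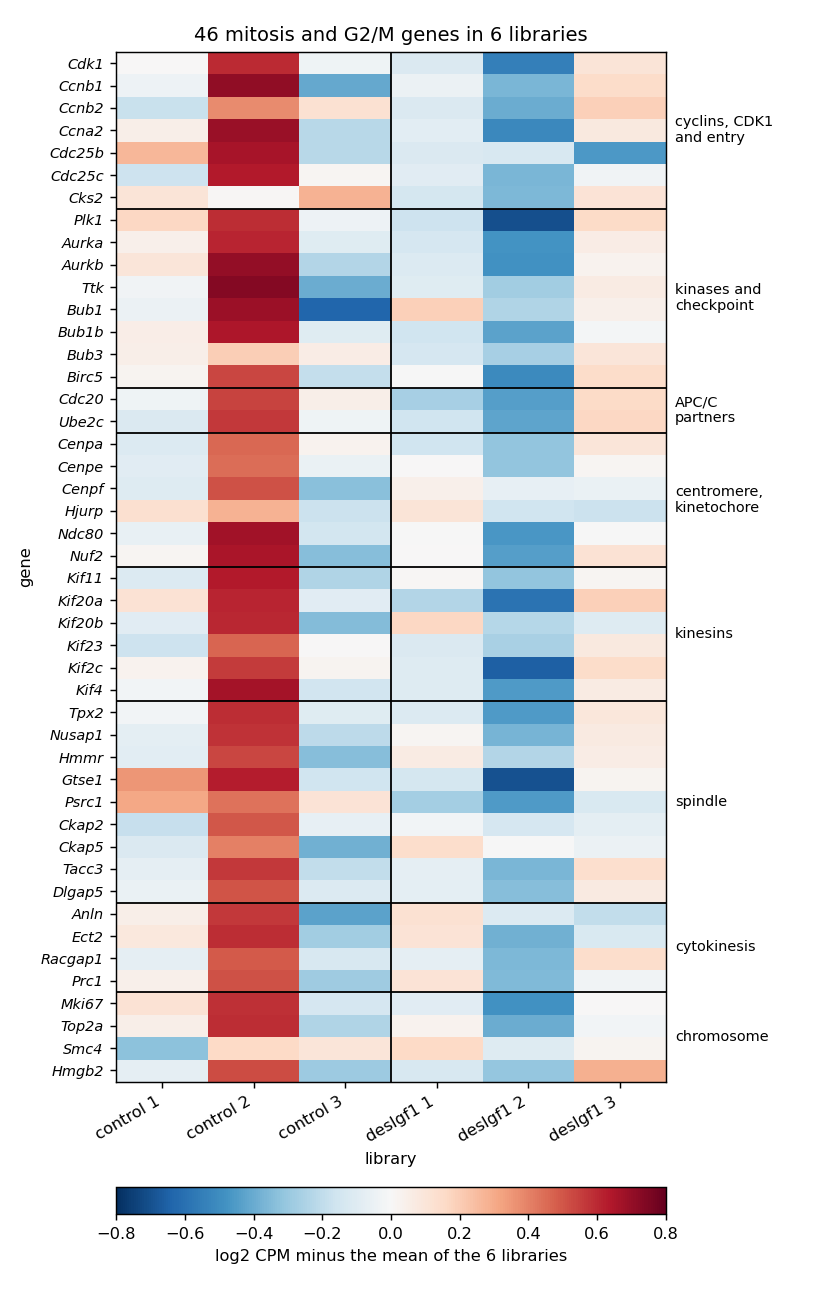
Colour shows log2 CPM (prior count 2) minus the mean of the 6 libraries, with a row per gene, grouped by role, and a column per library. The control 2 column is red in nearly every row, Cks2 being the clearest exception, and the desIgf1 2 column is blue in most.

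The replicate numbers gave 3 different pictures of the same contrast. In number 1 the members' median log2 CPM difference, desIgf1 minus control, was -0.02, and 28 of 46 lay below 0, against 50% of tested genes. In number 2 it was -0.95, with all 46 below 0, against 46.1%, and a range of -1.32 to -0.26. In number 3 it was 0.19, and 7 of 46 lay below 0, against 49.7%. The members kept close together in each number: the interquartile range of their differences was 0.24, 0.30 and 0.20 log2 units in numbers 1, 2 and 3, against 0.40, 0.59 and 0.40 over all tested genes. For 59 genes of DNA replication and S phase it was 0.24, 0.40 and 0.18, so such closeness was not particular to the mitotic genes. The tested genes include ones with far fewer counts than most members. The part of counting noise in their wider range was not tested. Only 4 members were lower with desIgf1 in all 3 numbers (Cdc25b, Cks2, Psrc1 and Hjurp), against a background of 17.2%, and 0 were higher in all 3, against 20.9%. Groups did not overlap for 1 member, Psrc1, which was lower with desIgf1 (background 6.18%), and for 0 that were higher (background 7.31%). At an unadjusted p under 0.05, 2 of 46 were lower, Psrc1 and Cdc25b, against 3.42% of tested genes. At that level 0 were higher, against 657 of the 13846 tested genes. With the block 2 of 46 were lower at that level, against 5.29%, again Psrc1 and Cdc25b. With the block 0 were higher, against 1249 of the 13846 tested genes.

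**Figure D2:**
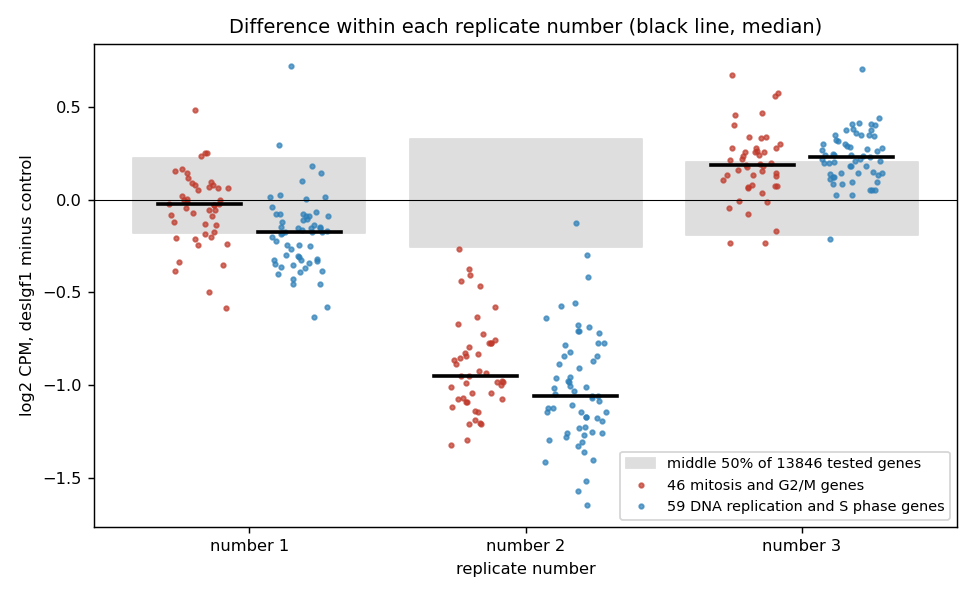
Points are genes, placed by log2 CPM difference (desIgf1 minus control) within each replicate number, for the 46 mitotic genes and 59 genes of DNA replication and S phase. Black lines are medians (-0.02, -0.95 and 0.19 for the mitotic genes) and grey bands the interquartile range of all tested genes, and in number 2 nearly all points of both sets lie below the band.

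Among the cyclins and the regulators of mitotic entry, all 7 had a fitted fold change below 1 and none passed the test, with a median log2 fold change of -0.36. Cdk1, the kinase that drives mitotic entry, was at 118, 179 and 115 CPM in control libraries 1, 2 and 3, and at 109, 80.7 and 127 CPM in desIgf1 libraries 1, 2 and 3. The 2 extremes were the libraries numbered 2, and the groups overlapped (log2 fold change -0.38 ± 0.22 SE, adjusted p = 0.650). Ccna2, cyclin A2, partner of CDK2 and then CDK1, also had its extremes in number 2, with 223, 349 and 185 CPM in the controls and 203, 151 and 228 CPM with desIgf1 (-0.38 ± 0.25, adjusted p = 0.682). Ccnb1, cyclin B1, was at 19.7, 33.3 and 15.3 CPM in the controls and 19.7, 15.8 and 22.5 CPM with desIgf1. Its lowest library was control 3 and its log2 fold change was -0.24 ± 0.29 (adjusted p = 0.831). Ccnb2, cyclin B2, ran from 72.7 to 124 CPM over the 6 libraries, and Cdc25c, a phosphatase that activates CDK1, from 14.3 to 28.7 CPM. Cks2, a small subunit of CDK complexes, ran from 2.85 to 4.47 CPM and was the one gene without its peak in control 2.

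Cdc25b, the phosphatase that starts CDK1 activation at the centrosome, departed from that order. It was at 283, 372 and 202 CPM in control libraries 1, 2 and 3 and at 217, 215 and 171 CPM in desIgf1 libraries 1, 2 and 3. The desIgf1 library was the lower of each pair, by 0.38, 0.79 and 0.23 log2 units in numbers 1, 2 and 3, yet control 3 lay below desIgf1 1 and 2. The fitted log2 fold change was -0.51 ± 0.22 (adjusted p = 0.608), or -0.47 ± 0.13 with the block (adjusted p = 0.201). Neither passed the threshold.

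Of the 8 mitotic kinases and checkpoint genes, all 8 had a fitted log2 fold change below 0 and none passed the test, with a median of -0.33. In number 3 all 8 were higher with desIgf1. Plk1, polo-like kinase 1, was at 85.1, 114 and 73.8 CPM in control libraries 1, 2 and 3 and at 67.5, 46.5 and 84.1 CPM in desIgf1 libraries 1, 2 and 3. Its groups overlapped because desIgf1 3 lay above control 3 (-0.46 ± 0.24, adjusted p = 0.634). Aurka, aurora kinase A of the spindle poles, was at 56.9, 84.6 and 51.7 CPM in the controls and 50.3, 39.7 and 57.7 CPM with desIgf1 (-0.39 ± 0.22, adjusted p = 0.646). Aurkb, aurora kinase B of the chromosomal passenger complex, was at 120, 182 and 95.2 CPM in the controls and 104, 79.9 and 114 CPM with desIgf1 (-0.42 ± 0.24, adjusted p = 0.652). Birc5, survivin, which works in the same complex, was at 102, 146 and 88.3 CPM and 101, 70.9 and 112 CPM (-0.25 ± 0.23, adjusted p = 0.759). In all of these the libraries numbered 2 were the highest and the lowest.

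Bub1, a checkpoint kinase at the kinetochore, had a nearly flat mean but a wide spread. It was at 59.4, 98.5 and 39.5 CPM in control libraries 1, 2 and 3 and at 69.9, 51.9 and 63.0 CPM in desIgf1 libraries 1, 2 and 3. Its lowest library was control 3, not desIgf1 2, with a log2 fold change of -0.10 ± 0.31 (adjusted p = 0.942) that was 0.32 without control 2. Bub3, the partner that brings Bub1 to kinetochores, varied little, from 137 to 190 CPM (-0.20 ± 0.12, adjusted p = 0.652). Ttk, the kinase that starts checkpoint signalling, ran from 19.8 to 43.3 CPM, and Bub1b, a part of the checkpoint complex that binds CDC20, from 114 to 240 CPM. Cdc20, which activates the anaphase-promoting complex, was at 108, 160 and 114 CPM in the controls and at 91.4, 81.0 and 123 CPM with desIgf1 (-0.37 ± 0.20, adjusted p = 0.645). Ube2c, the ubiquitin-conjugating enzyme of that complex, ran from 78.8 to 156 CPM with the same libraries at the ends.

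**Figure D3:**
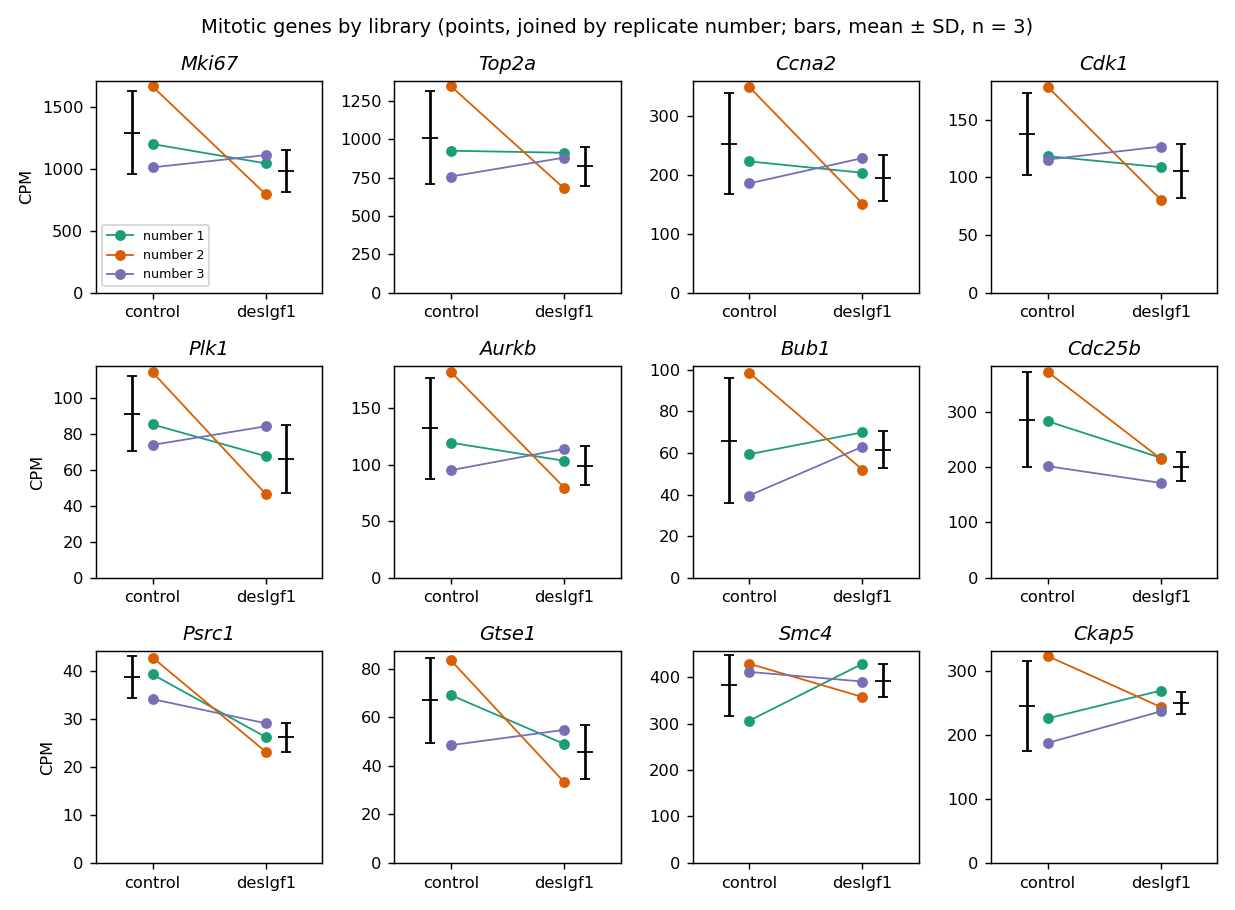
Points are CPM of 12 genes in each library, coloured and joined by replicate number, with mean ± SD of each group (n = 3) drawn beside them and axes starting at 0. The orange line of number 2 slopes down steeply for most genes, from 1664 to 793 CPM for Mki67, while numbers 1 and 3 differ less for all of these genes but Smc4, and Psrc1 is the gene whose groups do not overlap.

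At the centromere and kinetochore, each of 6 genes had a fitted log2 fold change below 0, with a median of -0.23 and none past the test. Cenpa, the histone H3 variant that marks centromeres, was at 130, 193 and 143 CPM in control libraries 1, 2 and 3 and at 125, 113 and 150 CPM in desIgf1 libraries 1, 2 and 3 (-0.26 ± 0.17, adjusted p = 0.678). Hjurp, the chaperone that places Cenpa, had the narrowest range of any member, 513 to 701 CPM, 1.37 times from lowest to highest. Cenpe and Cenpf, large kinetochore proteins, ran from 130 to 220 and from 118 to 211 CPM. Ndc80 and Nuf2, which pair in the microtubule-binding complex of the kinetochore, ran from 41.7 to 91.8 and from 35.7 to 76.2 CPM. For the 6 motor proteins the median log2 fold change was -0.30, and in number 3 all 6 were higher with desIgf1. Kif11, which pushes spindle poles apart, ran from 169 to 327 CPM, Kif2c, which shortens microtubules, from 36.1 to 83.7 CPM, and Kif4, a motor on chromosomes, from 64.5 to 140 CPM. Kif20a, Kif20b and Kif23, which act at the midzone and in cytokinesis, had log2 fold changes of -0.42, -0.16 and -0.22.

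For the 9 spindle genes the median was -0.23 on the log2 scale, and they included the lowest of the 46, Psrc1, and the second highest, Ckap5. Psrc1, a microtubule-associated protein of the spindle, was at 39.3, 42.8 and 34.2 CPM in control libraries 1, 2 and 3 and at 26.2, 23.2 and 29.1 CPM in desIgf1 libraries 1, 2 and 3. Every desIgf1 library lay below every control. The fitted log2 fold change was -0.57 ± 0.14 (adjusted p = 0.394), -0.57 ± 0.15 with the block (adjusted p = 0.188) and -0.49 without control 2. DESeq2 called Psrc1 (adjusted p = 0.0398), as 1 of 46 members, against 95 of 14224 genes called lower and 1.46% called in either direction. So did edgeR with the block and without both libraries numbered 3 (adjusted p = 0.0130). Over 15 alternatives the adjusted p of Psrc1 ran from 0.0130 to 0.9995. Gtse1, which binds microtubule ends and restrains p53 in G2, was at 69.1, 83.4 and 48.5 CPM in the controls and at 49.0, 33.3 and 54.8 CPM with desIgf1. Its groups overlapped, since desIgf1 1 and 3 lay above control 3 (-0.55 ± 0.24, adjusted p = 0.608, and 0.425 with the block).

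Ckap5, a microtubule polymerase, was at 225, 323 and 187 CPM in control libraries 1, 2 and 3 and at 269, 243 and 237 CPM in desIgf1 libraries 1, 2 and 3. The desIgf1 libraries all lay within the range of the controls (0.03 ± 0.19, adjusted p = 0.977). Tpx2, which activates Aurka on the spindle, ran from 134 to 275 CPM, Nusap1, a microtubule bundler, from 106 to 204 CPM, and Tacc3, a spindle partner of Ckap5, from 104 to 199 CPM. Each was highest in control 2 and lowest in desIgf1 2. Hmmr, Dlgap5 and Ckap2, other microtubule-binding proteins of the spindle, had log2 fold changes of -0.11, -0.25 and -0.19. Of the cytokinesis genes, Anln, which organises the contractile ring, was at 27.8 to 55.5 CPM, Ect2, which switches on RhoA there, at 36.5 to 71.9 CPM, Racgap1, its partner at the midzone, at 109 to 196 CPM, and Prc1, which bundles midzone microtubules, at 84.7 to 154 CPM. The median log2 fold change of these 4 was -0.21 and none passed the test.

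The most abundant members per length act on chromosomes. Mki67, the Ki-67 antigen that coats mitotic chromosomes and marks dividing cells, averaged 113 CPM per kb of exon, and Top2a, which untangles sister DNA, 102. Smc4, a condensin subunit, followed at 74.4, Hjurp at 69.9, Cdc25b at 65.3 and Ccnb2 at 63.5 CPM per kb, and Ccnb1, Anln and Cdc25c were the lowest at 4.99, 4.24 and 3.85 CPM per kb. Mki67 was at 1199, 1664 and 1011 CPM in control libraries 1, 2 and 3 and at 1043, 793 and 1110 CPM in desIgf1 libraries 1, 2 and 3. Outside number 2 its 4 values lay within 1011 to 1199 CPM with the groups overlapping (-0.40 ± 0.21, adjusted p = 0.635, and -0.17 without control 2). Top2a was at 927, 1348 and 758 CPM in the controls and at 913, 680 and 882 CPM with desIgf1 (-0.29 ± 0.22, adjusted p = 0.706). Smc4 was at 306, 429 and 412 CPM in the controls and at 429, 358 and 391 CPM with desIgf1, a pattern in which control 1 was the low library (0.04 ± 0.15, adjusted p = 0.954). Hmgb2, a DNA-bending protein, ran from 39.3 to 70.1 CPM.

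**Figure D4:**
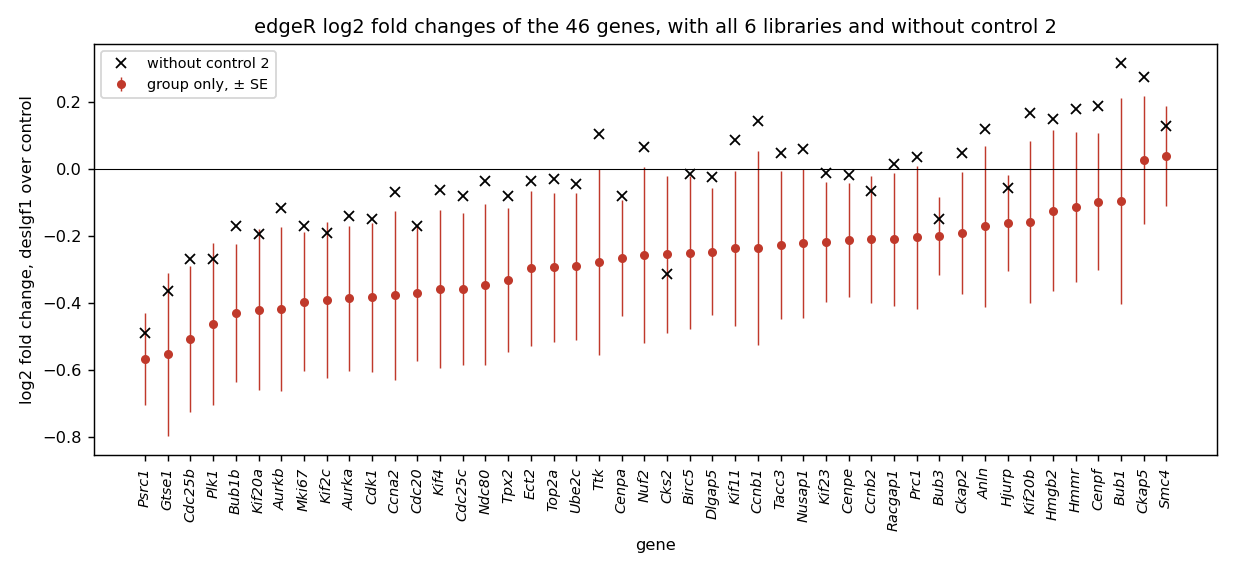
Circles are edgeR log2 fold changes (desIgf1 over control) of the 46 genes with all 6 libraries, ordered by size, and bars are ± SE. Crosses are the same without control library 2, and all but the one for Cks2 lie above their circle. That direction was largely fixed in advance, since control 2 was the highest library for the other genes.

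Leaving out control 2 moved the fitted value up for 45 of 46 members, with Cks2 at -0.31 in place of -0.25. Control 2 was the highest library for all members but Cks2, so this direction was largely fixed in advance. Without that library the lowest values were those of Psrc1 at -0.49, Gtse1 at -0.36, Cks2 at -0.31, Cdc25b at -0.27 and Plk1 at -0.27. The highest were Bub1 at 0.32, Ckap5 at 0.27 and Cenpf at 0.19. With the block and without both libraries numbered 2 the median was 0.078, and 13 of 46 lay below 0. With the block and without both libraries numbered 3, a fit with 1 residual degree of freedom, 5 members were called lower (Cdc25b, Plk1, Kif20a, Gtse1 and Psrc1). Of the 13987 genes tested in that fit, 415 were called lower, and 7.64% were called in either direction.

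Other cell cycle genes of lists drawn from textbook function, outside the 46, did not pass either. Of 154 such genes 151 were tested, 0 passed in either direction with or without the block, and the median log2 fold change was -0.17, with 123 below 0. Their median differences in numbers 1, 2 and 3 were -0.01, -0.64 and 0.19, and 113 were highest in control 2. In 26 other kinetochore genes the median was -0.80 in number 2, and the 29 other spindle and G2/M genes -0.91. Subunits and regulators of the anaphase-promoting complex, 17 genes, showed a median of -0.08 in the fit and -0.19 in number 2, and 13 CDK inhibitors and p53 targets had -0.05 and 0.08. The 59 genes of DNA replication and S phase, the step before, had median differences of -0.17, -1.06 and 0.23 in numbers 1, 2 and 3 and a median log2 fold change of -0.35, with 57 below 0 and 0 past the test. All these lists share the same 6 libraries with the mitotic genes, so their likeness is no independent support.

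**Figure D5:**
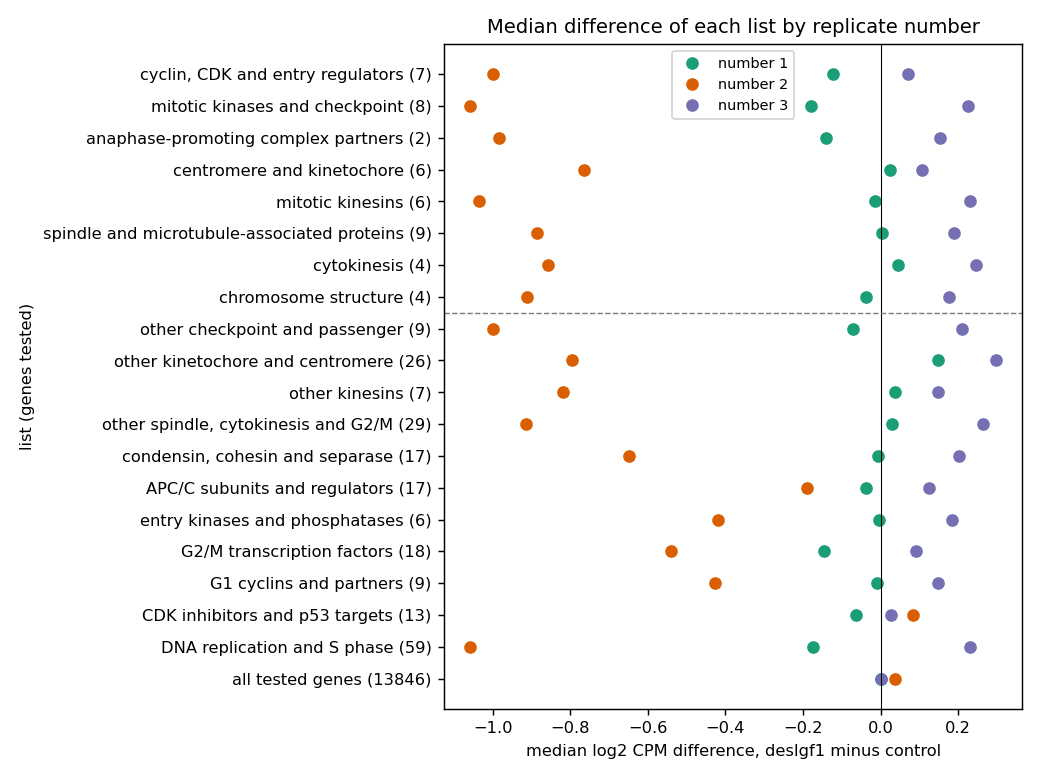
Each point is the median log2 CPM difference (desIgf1 minus control) of a list in a replicate number, with the roles of the 46 genes above the dashed line and other lists below it, and the number of tested genes in brackets. Number 2 lies between -1.06 and -0.76 for the 8 roles and at 0.08 for CDK inhibitors and p53 targets.

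Among the regulators of this program, Foxm1, the forkhead factor that activates G2/M genes, was at 116, 167 and 95.5 CPM in control libraries 1, 2 and 3 and at 102, 76.6 and 114 CPM in desIgf1 libraries 1, 2 and 3 (-0.37 ± 0.23, adjusted p = 0.662). Mybl2, which joins MuvB before Foxm1, was at 64.7, 84.5 and 51.1 CPM in the controls and at 45.4, 33.1 and 52.8 CPM with desIgf1 (-0.61 ± 0.23, adjusted p = 0.561). Both had their extremes in the libraries numbered 2, as the mitotic genes did. Mad1l1, a checkpoint protein that loads MAD2 at kinetochores, had the smallest p of these other lists. It was at 52.6, 55.4 and 38.3 CPM in the controls and at 30.7, 22.5 and 35.3 CPM with desIgf1, without overlap (-0.73 ± 0.21, adjusted p = 0.452, and 0.245 with the block). Kif22, a chromosome motor, and Depdc1b also had groups without overlap, lower with desIgf1 (-0.49 and -0.44, adjusted p = 0.554 and 0.595). With E2f3, a transcription factor named after its values were seen, they were 4 of the 151 other cell cycle genes tested, a share below the 6.18% of all tested genes.

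Genes that restrain division, and further genes of G1, S phase and mitosis, did not pass either. Wee1, the kinase that inhibits CDK1, was at 22.5 ± 2.51 CPM in the controls and 20.9 ± 2.55 CPM with desIgf1 (SD, n = 3), and edgeR gave an adjusted p of 0.854. Fzr1, which activates the anaphase-promoting complex after mitosis, was at 115 ± 14.0 and 105.5 ± 10.6 CPM. Cdkn1a and Cdkn1b, the CDK inhibitors p21 and p27, were at 55.8 ± 26.6 and 46.7 ± 14.7 CPM and at 208 ± 20.6 and 235 ± 58.6 CPM. Their groups overlapped, and neither had its highest control value in library 2. Ccnd2 and Ccnd3, the D cyclins of G1, were at 682 ± 71.2 and 695 ± 17.5 CPM and at 268 ± 51.0 and 265 ± 39.6 CPM. Mcm2, a replicative helicase subunit, had 338, 408 and 258 CPM in controls 1, 2 and 3 and 258, 179 and 275 CPM with desIgf1 (-0.50 ± 0.21, adjusted p = 0.608). Rpa1, which coats single-stranded DNA, was lower with desIgf1 without overlap (357 ± 9.48 and 279 ± 32.1 CPM, adjusted p = 0.497). Of the 59 S phase genes it was the 1 that was lower without overlap, against 6.18% of all tested genes. Mcm2 had its extremes in the libraries numbered 2, and Rpa1 was highest in control 1. Pttg1, securin, was at 19.6 ± 2.41 and 24.6 ± 2.78 CPM with overlapping groups (adjusted p = 0.613). Gadd45b, a stress-induced gene, was at 18.7 ± 2.64 and 25.2 ± 3.46 CPM with the groups apart (adjusted p = 0.566). Among the 151 other cell cycle genes tested, 2 were higher with desIgf1 without overlap, a share below the 7.31% of all tested genes. Cdk4, the partner of the D cyclins, Pkmyt1, an inhibitor of CDK1, Cenpn of the centromere and Anapc13 of the anaphase-promoting complex had log2 fold changes of -0.28, -0.32, -0.44 and -0.33, with adjusted p of 0.625 to 0.701.

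Some members' levels are less certain because reads of near-identical or overlapping genes were not counted or could not be placed. Of 50-base stretches of their transcripts, 29.7% were shared with other genes for Cks2, 25.2% for Kif20a, whose exons overlap Cdc23 on the opposite strand, 23.4% for Ccnb1, 18.7% for Hmgb2 and 16.0% for Ube2c, which overlaps Tnnc2. The share was 14.5% for Kif4, 11.9% for Cdc25c, 11.4% for Ccna2, 10.6% for Cdc20 and 10.4% for Plk1. Exons of each of these, and of Cdc25b (1.15%), overlap a gene on the opposite strand. For Psrc1 the share was 0.390%, for Mki67 0.668%, and for Cdk1, Gtse1, Aurka, Aurkb and Bub1 it was 0.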

How the data were processed

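The authors deposited raw whole-number counts per Ensembl gene. The submitters' processing notes name STAR 2.5.3, HTSeq 0.7.2, Trim Galore 0.4.5 and SAMtools 0.1.18, R 3.4.3 with DESeq2 1.18.1, and mouse build GRCm38 (mm10). A stranded mRNA kit was used per the labels' protocols. For the strand setting of the counting, and for the annotation release, the answer is not given in the sources used here. Members that overlap a gene on the other strand are uncertain. The 5 summary lines of each table name no gene and stayed out of library sizes. Of the reads placed once, 13.5 to 15.7% lay in no gene and 0.712 to 0.761% in more than 1, and alignments marked not unique were 46.4 to 48.7% of all entries. Libraries of a group were not copies of each other (chi-square per degree of freedom 40.2 to 129).

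Genes were tested in R 4.3.3 with edgeR 4.0.16 (TMM factors, genes kept by filterByExpr at a count minimum of 10, glmQLFit with robust on, group as the single term, tested on simulated data), with Benjamini-Hochberg adjustment over all 13846 tested genes and a threshold of 0.05. The simulated data held larger changes than those of the members and no replicate-number effect, so they do not show the power for differences like these. CPM use TMM factors, and log2 CPM a prior count of 2. Standard errors are the size of the log2 fold change over the square root of F. Each library's deviation from its group mean was correlated, across genes, with that of the same number in the other group (0.59, 0.32 and 0.55). Numbers were therefore used as pairs for the within-number differences and the fits with a block, on this check alone, since no label states it. The main fit was not paired. The fit with this block leaves 2 residual degrees of freedom, the one without it 4. Alternatives were RLE and upper quartile factors, DESeq2 1.42.0, limma voom 3.58.1, no filter, another prior count, the block, and leaving out libraries. Symbols and exon lengths came from GENCODE M21. Values in all libraries are given for 12 well-known members, the 3 highest and the 3 lowest fold changes, the 3 smallest blocked p and members without overlap. Of other lists, 9 chosen genes and the smallest p of each list are named. Members, lists and rules were chosen with earlier results of these data known. The shares of 50-base stretches and the principal components were added after values were seen. One marker list is not reported here.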

Additional observations from a re-analysis of the deposited data

How the results depend on the processing

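The count of genes past the threshold, 0, depended on the fit. DESeq2 called 208 of all genes (113 higher, 95 lower) and 1 member, edgeR without a filter 16 genes, and the fit with the replicate block 44 (25 higher, 19 lower) and 0 members. With the replicate block and without number 1, 2 or 3 in turn it was 72, 620 and 1069 genes, from 1 residual degree of freedom, with 0, 0 and 5 members. The cause was not tested. With the block and without number 2 the medians were 0.078 for the 46 mitotic genes, 0.095 for other cell cycle genes and 0.0067 for S phase genes, in place of values below 0. With each library left out in turn, 0 genes and 0 members were called, the members' median ran from -0.40 to -0.04, and the highest value was that without control 2. The scaling factors, voom and the prior count moved no median past the spread between libraries. That bar is loose, since for the members the spread was 0.31 and the median -0.26. With RLE factors, upper quartile factors and voom the members' median was -0.26, -0.25 and -0.24. With 3 libraries a group, differences of this size between libraries of the same group limit what can be called.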
